A study of Mus musculus with 20 samples.

Results

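Sgk1, Errfi1, Pdk4, Zbtb16, Plin4, Fkbp5, Tsc22d3, Ddit4, Cdkn1a and Mt2 are genes whose transcription is known to respond to glucocorticoids, and their mRNA was followed in mouse brain across lines that differ in the kinase JNK. The 10 genes were taken by name from tables of 23845 genes, and were chosen with earlier results of these data known. All 10 were in the tables and passed the filter on low counts, which left 16063 genes for testing. The clearest difference lay between the lines J1 lf/lf and J2 lf/lf, in which Sgk1 and Errfi1 were lower in J1 lf/lf, and these were the only members called in 13 comparisons between pairs of groups. A gene is called here at an edgeR adjusted p of at most 0.05 over all genes tested. In J1 lf/lf against J2 lf/lf, 0.0809% of all genes were called. Both member calls were lost in most fits that left out 1 library of either line.

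Glucocorticoids, mainly corticosterone in mice, enter cells and bind the glucocorticoid receptor (Nr3c1) and, at lower hormone levels, the mineralocorticoid receptor (Nr3c2). The receptors move to the nucleus, bind short palindromic DNA elements and raise or lower the transcription of their targets. In brain these targets are expressed in neurons, glia and vessels, and many of them also answer other signals: Ddit4 answers hypoxia and stress, Cdkn1a answers p53, and Mt2 answers zinc and other metals. Hormone levels and the time of day of collection were not analysed here, and no label names a hormone treatment.

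The 20 libraries were poly(A)-enriched RNA from brain of mice labelled C57/Bl6J. They fall into 7 groups by genotype label, with 3 libraries each of J17a, J27a, J27b, J1 lf/lf, J2 lf/lf and Wild type and 2 of J17b. The series concerns mice that lack single isoforms of JNK, a stress-activated kinase, and their controls, all on normal diet. The codes are not explained in the labels, which also do not say whether an isoform in a code is the one removed or the one left, how or in which cells the change was made, or how old the mice were. No label states that the libraries of 1 group are separate animals, so each p-value measures only the spread between these libraries, which may be technical.

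Library totals ran from 21395041 to 33828755 estimated counts, which for the members gave from 254 (Pdk4) to 6447 (Sgk1) counts in a library. Among the JNK genes, Mapk9 (JNK2) had 58.1 to 177 CPM in J2 lf/lf, against 293 to 360 CPM in Wild type, and Mapk8 (JNK1) had 74.6 to 79.2 CPM in J17b, against 109 to 140 CPM in Wild type. Mapk8 had 102 to 122 CPM in J1 lf/lf, which overlapped Wild type, so its total gives no check of that label. Levels in CPM are counts relative to a TMM-scaled library total. Of the 6 markers of anterior pituitary, Gh, Prl, Cga, Tshb and Lhb were at 0 in at least 1 library, and the summed level of the 6 was 2109 CPM in Wild type replicate 2, 3135 CPM in J1 lf/lf replicate 3 and 664 CPM in J27a replicate 3, against at most 104 CPM in the other 17. The libraries with title numbers above 10 (J17a replicates 2 and 3 and all of J17b, J27a and J27b) had 1.73% to 5.33% of their counts in the ribosomal RNA gene Rn45s, against 0.31% to 0.676% in the others. All libraries of J1 lf/lf, J2 lf/lf and Wild type had title numbers of at most 10. In bulk tissue, fewer cells of a type and less RNA per cell cannot be told apart.

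The promoters of Sgk1 and Errfi1, the called members, and of Mt2 are shown with that of the metallothionein gene Mt1, so that elements known to bind regulators of these genes can be read as letters. Whether any of these elements plays a part in the differences between groups was not tested. The sequences are RefSeq promoter windows of build GRCm38.p6, the 250 bases before a transcription start, and 9 of the 10 members were matched to a window. Motifs were searched on both strands from 250 bases before to 50 bases after the start. Capitals mark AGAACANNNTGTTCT, the full palindrome bound by the receptors, and its single arm AGAACA in Sgk1, the cyclic AMP response element TGACGTCA in Errfi1, and the metal response elements TGCACNC and TGCGCNC in Mt2 and Mt1. The single arm also lies within the palindrome, and in the Sgk1 window shown it occurred once more, 242 bases upstream of the start. The Sgk1 window is chr10:21993640-21993889, the Errfi1 window chr4:150854820-150855069, the Mt2 window chr8:94172368-94172617 and the Mt1 window chr8:94178839-94179088, all on the plus strand.
Sgk1: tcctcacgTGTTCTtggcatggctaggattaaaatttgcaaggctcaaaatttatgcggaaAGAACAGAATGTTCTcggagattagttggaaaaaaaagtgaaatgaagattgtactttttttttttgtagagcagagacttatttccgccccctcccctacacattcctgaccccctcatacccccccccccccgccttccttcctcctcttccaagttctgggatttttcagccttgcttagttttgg
Errfi1: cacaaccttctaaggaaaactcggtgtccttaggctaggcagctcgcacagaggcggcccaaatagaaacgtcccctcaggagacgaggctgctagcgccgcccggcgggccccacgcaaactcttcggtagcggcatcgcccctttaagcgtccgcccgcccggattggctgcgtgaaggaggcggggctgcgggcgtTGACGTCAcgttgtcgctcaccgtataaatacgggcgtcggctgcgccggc
Mt2: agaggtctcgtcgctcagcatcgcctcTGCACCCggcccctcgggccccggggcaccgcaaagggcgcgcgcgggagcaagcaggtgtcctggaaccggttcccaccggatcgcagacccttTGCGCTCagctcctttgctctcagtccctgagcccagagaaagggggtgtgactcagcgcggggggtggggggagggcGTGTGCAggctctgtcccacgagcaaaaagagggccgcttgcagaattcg
Mt1: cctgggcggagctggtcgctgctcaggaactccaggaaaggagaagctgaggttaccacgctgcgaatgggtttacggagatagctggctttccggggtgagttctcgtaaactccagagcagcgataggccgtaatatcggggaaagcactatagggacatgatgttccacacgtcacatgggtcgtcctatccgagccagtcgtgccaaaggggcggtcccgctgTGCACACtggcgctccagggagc

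The full palindrome in Sgk1 began 189 bases upstream of the start, in 1 of 6 windows that RefSeq gives for this gene, and 3 of 32851 windows of all genes (0.00913%) held it. Its single arm was common, in 18.97% of windows, and was found also in 2 other Sgk1 windows, 195 and 13 bases upstream of their starts, and in Tsc22d3, 185 bases upstream of 1 start. The Errfi1 element began 51 bases upstream, in a motif held by 1.79% of windows. Mt2 had metal response elements 223, 128 and 50 bases upstream, in forms that 12.59% (TGCACNC) and 15.39% (TGCGCNC) of windows held, and an AP-1 site, TGANTCA, 79 bases upstream, as did 7.81% of windows. TGCGCNC was also found in Ddit4, 184 bases upstream, and just after the start in Mt2, Mt1 and 1 other Sgk1 window, as was TGCACNC in Mt1. No palindrome was found in the windows of Errfi1, Pdk4, Plin4, Fkbp5, Tsc22d3, Ddit4, Cdkn1a and Mt2, which says only that these letters are absent there. A match describes the sequence and is not evidence of binding.

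The members covered a wide range of levels. Per length, Mt2 had a median of 1201 TPM over the 20 libraries, Tsc22d3 166.8 TPM and Sgk1 137 TPM. Ddit4 had a median of 47.8 TPM, Cdkn1a 35.5 TPM, Errfi1 33.7 TPM, Fkbp5 31.6 TPM and Zbtb16 24.0 TPM. Pdk4 and Plin4 were lowest, with medians of 9.96 and 8.02 TPM. Between the highest and the lowest library the level in CPM differed 3.45-fold for Plin4, 2.82-fold for Sgk1 and 2.62-fold for Ddit4, and least for Errfi1, at 1.44-fold.

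**Figure D1:**
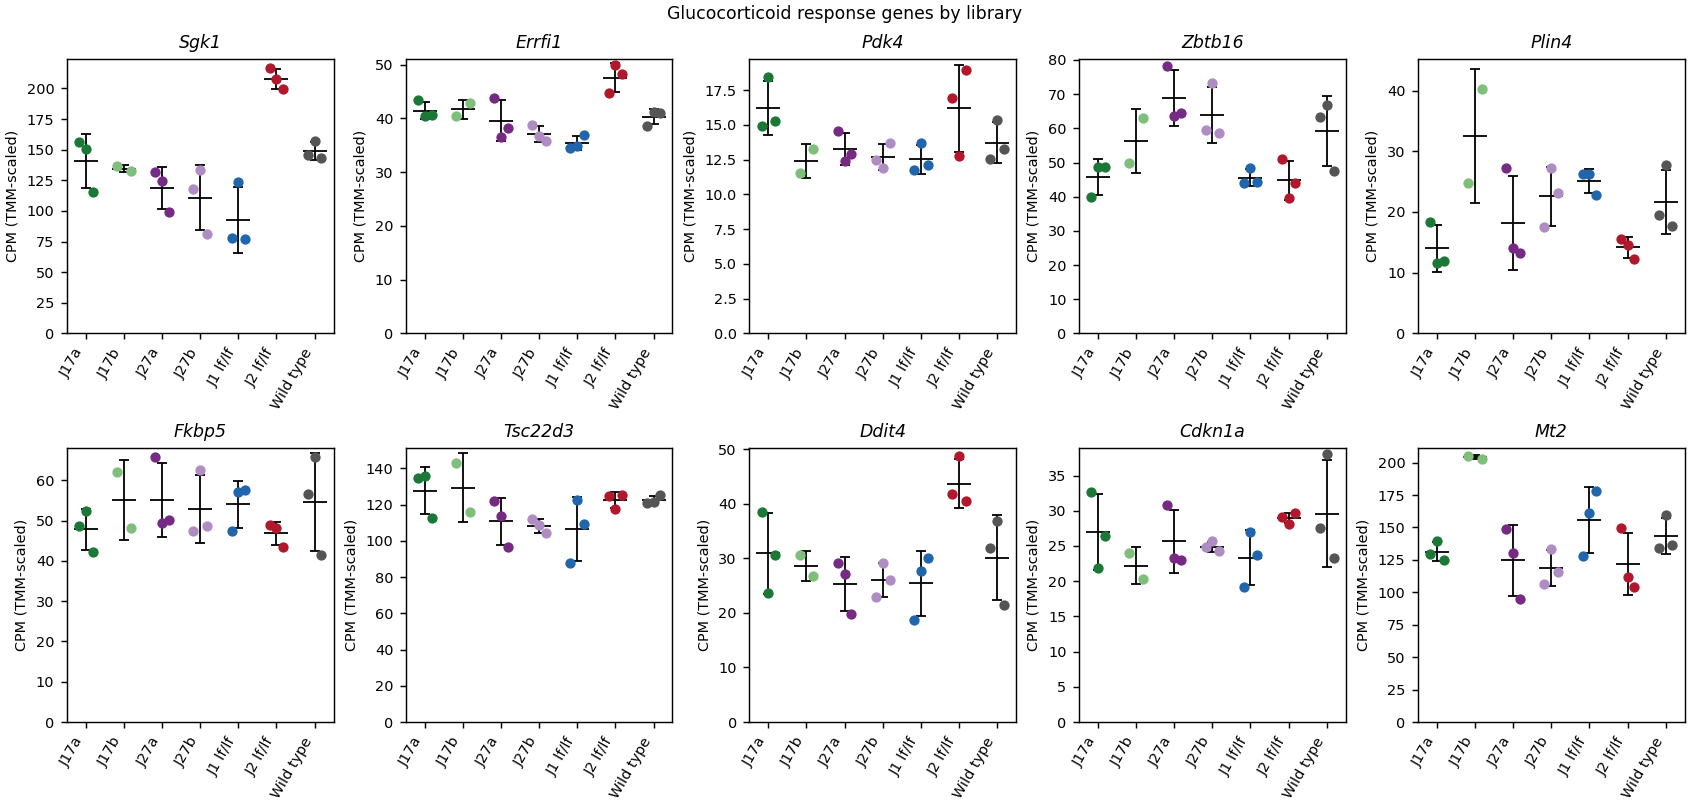
Levels of the 10 genes in CPM (TMM-scaled, linear axes from 0) in each library, by group, with replicates 1 to 3 from left to right in a group; long bars are group means and whiskers SD. The 3 J2 lf/lf libraries of Sgk1, at 199.7 to 216 CPM, and the 2 J17b libraries of Mt2, at 203 and 206 CPM, lie above those of all other groups.

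Sgk1 (chromosome 10, 21882184 to 21999903, plus strand, mm10) encodes serum- and glucocorticoid-regulated kinase, which acts on ion channels and transporters and is among the genes that answer corticosterone in oligodendrocytes. The J1 lf/lf libraries had 78.1, 124 and 76.7 CPM and those of J2 lf/lf 216, 207 and 199.7 CPM. The Wild type libraries had 146, 157 and 143 CPM. All J1 lf/lf libraries lay below and all J2 lf/lf libraries above those of Wild type. Of all genes tested, 3.97% lay below Wild type without overlap in J1 lf/lf and 5.4% above it in J2 lf/lf. In the isoform lines Sgk1 had 156, 150.3 and 115 CPM in J17a, 136 and 133 CPM in J17b, 132, 125 and 99.04 CPM in J27a and 118, 134 and 81.5 CPM in J27b. The group means ran from 208 ± 8.40 CPM in J2 lf/lf through 149 ± 7.60 CPM in Wild type to 92.9 ± 26.9 CPM in J1 lf/lf (SD, n = 3 each). In that order J2 lf/lf stood clear of Wild type, and J17b of J27a, while all other neighbours overlapped.

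Between the lines named for JNK1 and JNK2, Sgk1 averaged 92.9 CPM in J1 lf/lf, 44.7% of the 208 CPM in J2 lf/lf (log2 fold change -1.16, SE 0.19, 95% interval -1.55 to -0.76, edgeR adjusted p = 0.0321). This was 1 of 13 genes called in that comparison, 0.0809% of all tested, and the gene ranked 6 of 16063 by p. Against Wild type, Sgk1 was at -0.68 in J1 lf/lf (SE 0.19, unadjusted p = 0.00214, adjusted p = 0.624) and at 0.48 in J2 lf/lf (SE 0.18, unadjusted p = 0.0187, adjusted p = 0.618). Neither passed the threshold, and both share the Wild type libraries. The call between J1 lf/lf and J2 lf/lf did not survive the loss of any J2 lf/lf library (adjusted p = 0.0831 to 0.0941), of J1 lf/lf replicate 1 (adjusted p = 0.0615) or 3 (adjusted p = 0.142), or a fit of these 2 groups alone (adjusted p = 0.186). Without the 3 libraries rich in pituitary transcripts, left out after seeing the data, it was -1.04 (adjusted p = 0.196).

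The isoform lines of each gene were also set against the line of the same gene. Sgk1 averaged 119 CPM in J27a and 111 CPM in J27b, against 208 CPM in J2 lf/lf, with log2 fold changes of -0.81 (SE 0.19, adjusted p = 0.343) and -0.90 (SE 0.19, adjusted p = 0.306). It averaged 141 CPM in J17a and 134 CPM in J17b, against 92.9 CPM in J1 lf/lf, with log2 fold changes of 0.60 (SE 0.19, adjusted p = 0.551) and 0.53 (SE 0.21, adjusted p = 1 by edgeR). In J27b against Wild type it was -0.42 (SE 0.18, adjusted p = 0.717). The libraries did not overlap in these 5 comparisons, except in J17a against J1 lf/lf, and none passed the edgeR threshold. Separation is common with so few libraries. Of all genes, 8.62% lay below without overlap in J27a against J2 lf/lf, 8.02% in J27b against J2 lf/lf and 5.9% in J27b against Wild type. In J17b against J1 lf/lf 9.79% lay above.

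All libraries of J17b, J27a and J27b had title numbers above 10 and all of J1 lf/lf, J2 lf/lf and Wild type at most 10, so line and title number cannot be told apart in comparisons between these 2 sets. A fit with a term for title number can be made only through J17a, whose replicate 1 alone has a title number of at most 10, so its values rest on that 1 library. With this term Sgk1 was at -0.19 in J27b against Wild type (unadjusted p = 0.581), -0.58 in J27a against J2 lf/lf (unadjusted p = 0.11) and -0.67 in J27b against J2 lf/lf (unadjusted p = 0.0665).

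Markers of other cell types also differed between J27a and J2 lf/lf at an unadjusted p under 0.05, which 6.36% of all genes reached. The 8 oligodendrocyte markers were all negative, 6 at an unadjusted p under 0.05, and summed to 4948 to 6105 CPM in J27a, against 6391 to 7044 CPM in J2 lf/lf. The 6 choroid plexus markers were all negative, 5 at an unadjusted p under 0.05, and summed to 427 to 465 CPM in J27a, against 598 to 1838 CPM in J2 lf/lf. The 4 red blood cell genes tested were all positive, 3 at an unadjusted p under 0.05, and summed to 650.1 to 1075 CPM in J27a, against 368 to 487 CPM in J2 lf/lf. None of these genes was called by edgeR and none was at 0 in any library, and their part in the J27a values was not tested. In J27b against J2 lf/lf, no marker of these 3 lists had an unadjusted p under 0.05. The J27b sums for oligodendrocytes, 6326 to 6716 CPM, and choroid plexus, 468 to 1464.5 CPM, overlapped those of J2 lf/lf. The red blood cell sum of 539 to 737 CPM in J27b lay above that of J2 lf/lf. Whether these cell types play a part in the J27b values was not tested. The 8 microglia markers were all negative against J2 lf/lf in both lines. At an unadjusted p under 0.05 there were 1 in J27a and 3 in J27b, against 6.36% and 4.75% of all genes, and edgeR called 0. They summed to 296 to 316 CPM in J27a and 292 to 309 CPM in J27b, against 323 to 348 CPM in J2 lf/lf, and their part was not tested.

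Errfi1 (chromosome 4, 150853919 to 150868892, plus strand), whose product Mig6 binds and inhibits kinases of the EGF receptor family, had the same order of J2 lf/lf, Wild type and J1 lf/lf, over a narrow range. The J1 lf/lf libraries had 34.6, 34.9 and 36.9 CPM and those of J2 lf/lf 44.7, 49.9 and 48.2 CPM. The Wild type libraries had 38.7, 41.3 and 41.0 CPM. Again every J1 lf/lf library was lower, and every J2 lf/lf library higher, than the 3 of Wild type. The first held for 3.97% of all genes tested and the second for 5.4%. Errfi1 averaged 35.5 ± 1.26 CPM in J1 lf/lf, 74.5% of its J2 lf/lf mean of 47.6 ± 2.65 CPM (SD of 3 libraries; log2 fold change -0.42, SE 0.08, 95% interval -0.59 to -0.26, edgeR adjusted p = 0.0329). The call was lost without any 1 library of either group (adjusted p = 0.0542 to 0.221), without J27b replicate 2 (adjusted p = 0.0526) or 3 (adjusted p = 0.0524), with limma on log2(TPM + 1) (adjusted p = 0.0669), and without the 3 libraries rich in pituitary transcripts (-0.45, adjusted p = 0.144).

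Errfi1 in the isoform lines lay between these extremes, with 43.4, 40.5 and 40.6 CPM in J17a, 40.4 and 43.0 CPM in J17b, 43.9, 36.6 and 38.2 CPM in J27a and 38.8, 36.7 and 35.8 CPM in J27b. J2 lf/lf stood clear of the group next to it and all other neighbours in the order overlapped. Against J2 lf/lf, the log2 fold change was -0.27 in J27a (SE 0.08, adjusted p = 0.44) and -0.36 in J27b (SE 0.08, adjusted p = 0.306). Against J1 lf/lf it was 0.23 in J17a (SE 0.08, adjusted p = 0.58) and 0.23 in J17b (SE 0.09, adjusted p = 1). Against Wild type it was -0.18 in J1 lf/lf (SE 0.08, adjusted p = 0.944) and 0.24 in J2 lf/lf (SE 0.08, adjusted p = 0.59 by edgeR). With the title number term, which rests on J17a replicate 1, the value against J2 lf/lf was -0.17 in J27a (unadjusted p = 0.25) and -0.26 in J27b (unadjusted p = 0.081).

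Ddit4 (REDD1; chromosome 10, 59949669 to 59951834, minus strand), an inhibitor of the growth-regulating kinase complex mTORC1, had 18.6, 27.6 and 30.0 CPM over the J1 lf/lf libraries and 41.7, 48.8 and 40.5 CPM over those of J2 lf/lf. Wild type had 32.0, 36.9 and 21.5 CPM. No library outside J2 lf/lf exceeded 38.5 CPM, and J1 lf/lf overlapped Wild type. Without overlap, 5.4% of all genes lay above Wild type in J2 lf/lf, and 7.83% lay below J2 lf/lf in J1 lf/lf. The isoform lines had 38.5, 23.6 and 30.6 CPM in J17a, 30.6 and 26.7 CPM in J17b, 29.1, 27.2 and 19.8 CPM in J27a and 22.9, 29.2 and 26.0 CPM in J27b. The mean of 25.4 CPM in J1 lf/lf was 58.2% of the 43.7 CPM in J2 lf/lf (log2 fold change -0.78, SE 0.21, unadjusted p = 0.00195, edgeR adjusted p = 0.294), which passed with DESeq2 (adjusted p = 0.0292). Against J2 lf/lf it was -0.78 in J27a (SE 0.21, adjusted p = 0.42) and -0.75 in J27b (SE 0.21, adjusted p = 0.671), and J2 lf/lf against Wild type gave 0.53 (SE 0.21, edgeR adjusted p = 0.618). With the title number term the J27a value was -0.28 (unadjusted p = 0.451) and the J27b value -0.24 (unadjusted p = 0.512).

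Pdk4 and Plin4 belong to fuel and fat handling. Pdk4 (chromosome 6, 5483351 to 5496309, minus strand) phosphorylates and so inactivates the pyruvate dehydrogenase complex, and it had 11.6 to 18.9 CPM over all libraries. It had 14.95, 18.4 and 15.3 CPM in J17a, against 11.6 and 13.3 CPM in J17b, without overlap (log2 fold change 0.39, SE 0.15, unadjusted p = 0.02, adjusted p = 0.748). Of all genes, 9.85% lay above in J17a without overlap in this comparison. J17a also lay above the 11.7, 13.7 and 12.1 CPM of J1 lf/lf (0.37, SE 0.14, adjusted p = 0.627), as did 6.08% of all genes without overlap. In J2 lf/lf, replicates 1 and 3 stood at 16.9 and 18.9 CPM but replicate 2 at 12.8 CPM, within the range of J1 lf/lf, J27a and J27b. The log2 fold change against J2 lf/lf was -0.37 in J1 lf/lf (SE 0.14, adjusted p = 0.544), -0.29 in J27a (SE 0.13, adjusted p = 0.758) and -0.36 in J27b (SE 0.13, edgeR adjusted p = 0.94). With the title number term the J27a value was -0.46 and the J27b value -0.53.

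Plin4 (chromosome 17, 56100591 to 56109803, minus strand) codes for perilipin 4, a coat protein of lipid droplets, and spread most of the members. It had 18.4, 11.7 and 11.9 CPM in J17a, against 24.7 and 40.3 CPM in J17b. The J17a mean of 14.0 CPM was 43.0% of the 32.5 CPM in J17b (log2 fold change -1.21, SE 0.31, unadjusted p = 0.00112, edgeR adjusted p = 0.572), and without J17b replicate 2 the value was -0.82. It had 26.3, 26.3 and 22.8 CPM in J1 lf/lf, against 15.6, 14.6 and 12.2 CPM in J2 lf/lf, again without overlap and opposite in direction to Sgk1, Errfi1 and Ddit4. That mean of 25.1 CPM in J1 lf/lf was 177% of the 14.2 CPM in J2 lf/lf (log2 fold change 0.83, SE 0.28, edgeR adjusted p = 0.517). In a fit of the 2 groups alone the adjusted p was 0.00271. Of all genes, 7.43% lay above without overlap in J1 lf/lf against J2 lf/lf, and 9.97% below in J17a against J17b. J27a had 27.2, 14.1 and 13.2 CPM, J27b 17.5, 27.2 and 23.2 CPM and Wild type 19.5, 27.7 and 17.8 CPM. Further log2 fold changes were -0.84 in J17a against J1 lf/lf (adjusted p = 0.563), -0.63 in J17a against Wild type (adjusted p = 0.993), -0.62 in J2 lf/lf against Wild type (adjusted p = 0.624) and 0.68 in J27b against J2 lf/lf (adjusted p = 0.991, all by edgeR). With the title number term the first was -0.45, the second -0.24 and the last 1.32.

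Fkbp5, Tsc22d3 and Zbtb16 are regulators. Fkbp5 (chromosome 17, 28399094 to 28517527, minus strand), a co-chaperone of Hsp90 that lowers the receptor's affinity for hormone, is the member most used as a readout of glucocorticoid action in brain, and its group means differed least. J1 lf/lf averaged 54.1 ± 5.85 CPM and J2 lf/lf, the lowest, 46.8 ± 2.84 CPM, against 54.6 ± 12.2 CPM in Wild type (SD, n = 3), and the highest mean was 55.1 CPM in J17b. Wild type alone held its lowest and highest library, 41.5 CPM in replicate 3 and 65.7 CPM in replicate 2. No comparison reached an unadjusted p of 0.05 for Fkbp5, all neighbouring groups overlapped, and its log2 fold change in J1 lf/lf against J2 lf/lf had a 95% interval of -0.12 to 0.54.

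Tsc22d3 (GILZ; chromosome X, 140539528 to 140600659, minus strand), a leucine zipper protein that restrains inflammatory transcription factors, had 121, 122 and 125 CPM in Wild type and 88.1 CPM in J1 lf/lf replicate 1 to 143 CPM in J17b replicate 1 overall. It averaged 128 CPM in J17a and 129 CPM in J17b, against 107 CPM in J1 lf/lf, with log2 fold changes of 0.26 (SE 0.11, unadjusted p = 0.0223, adjusted p = 0.671) and 0.28 (SE 0.12, unadjusted p = 0.0277, adjusted p = 1). The J1 lf/lf libraries, at 88.1, 123 and 109 CPM, overlapped those of both lines.

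Zbtb16 (PLZF; chromosome 9, 48654297 to 48836222, minus strand), a zinc finger repressor, was ordered by line in another way. It had 78.3, 63.7 and 64.4 CPM in J27a and 59.7, 73.4 and 58.7 CPM in J27b, against 50.9, 39.5 and 43.9 CPM in J2 lf/lf. Both isoform lines stood clear of J2 lf/lf, above which 8.04% of all genes lay without overlap in J27a and 8.39% in J27b. The means of 68.8 CPM in J27a and 63.9 CPM in J27b were 154% and 143% of the 44.8 CPM in J2 lf/lf, with log2 fold changes of 0.62 (SE 0.13, unadjusted p = 0.000156, edgeR adjusted p = 0.193) and 0.51 (SE 0.13, unadjusted p = 0.00101, edgeR adjusted p = 0.509). The first passed with DESeq2 (adjusted p = 0.00821). The J27 libraries all had title numbers above 10 and the J2 lf/lf libraries of at most 10, so the line and the title number cannot be told apart there. With the title number term, which rests on J17a replicate 1, the J27a value was 0.33 (unadjusted p = 0.176) and the J27b value 0.22 (unadjusted p = 0.358).

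Zbtb16 in J17a stood at 39.8, 48.7 and 48.8 CPM, in J17b at 49.8 and 63.0 CPM and in J1 lf/lf at 44.0, 48.5 and 44.2 CPM. Wild type had 63.5, 66.8 and 47.5 CPM, and its replicate 3 lay within the range of the lower groups. Against Wild type the log2 fold change was -0.38 in J1 lf/lf (SE 0.13, adjusted p = 0.833), -0.40 in J2 lf/lf (SE 0.13, adjusted p = 0.59) and -0.37 in J17a (SE 0.13, edgeR adjusted p = 0.993), the last being -0.58 with the title number term. Each of these groups overlapped Wild type in range. Without the 3 libraries rich in pituitary transcripts, which include Wild type replicate 2, the first value was -0.26 and the second -0.31. Between J1 lf/lf and J2 lf/lf, the log2 fold change of Zbtb16 had a 95% interval of -0.26 to 0.31.

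Cdkn1a (p21; chromosome 17, 29090976 to 29100727, plus strand), an inhibitor of cyclin-dependent kinases, ranged from 19.2 CPM in J1 lf/lf replicate 1 to 38.0 CPM in Wild type replicate 2. It had 24.0 and 20.4 CPM in J17b, against 27.6, 38.0 and 23.2 CPM in Wild type. The log2 fold change was -0.42 (SE 0.19, unadjusted p = 0.0402, edgeR adjusted p = 0.827). The groups overlapped. With the title number term the value was 0.015, which rests on J17a replicate 1, at 32.6 CPM, set against J17a replicates 2 and 3, at 21.9 and 26.4 CPM. J2 lf/lf was the tightest of the groups of 3 after J27b, at 29.1, 28.1 and 29.6 CPM.

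Mt2 (chromosome 8, 94172664 to 94173568, plus strand) encodes a small protein that binds zinc and copper. It had 129.6, 139.8 and 125 CPM in J17a, against 206 and 203 CPM in J17b, and the J17b libraries were the highest of all 20. With so few libraries, 9.97% of all genes lay below without overlap in J17a against J17b. In J17b, 8.57% lay above Wild type and 9.79% above J1 lf/lf without overlap. The J17a mean of 131 CPM was 64.3% of the 204 CPM in J17b (log2 fold change -0.64, SE 0.17, 95% interval -0.997 to -0.28, unadjusted p = 0.00164, edgeR adjusted p = 0.587, and 0.047 in a fit of the 2 groups alone). Against Wild type, with 134, 159.6 and 136 CPM, Mt2 in J17b was at 0.51 (SE 0.17, adjusted p = 0.662). Against J1 lf/lf, with 128, 161 and 178 CPM, it was at 0.39 (SE 0.17, adjusted p = 1). The J17b libraries had title numbers above 10 and those of Wild type and J1 lf/lf at most 10, so line and title number cannot be told apart. With the title number term, which rests on J17a replicate 1, the values were 0.48 against Wild type and 0.36 against J1 lf/lf. J1 lf/lf against J2 lf/lf, with 149, 112 and 104 CPM, gave 0.35 (SE 0.16, edgeR adjusted p = 0.727), and these 2 groups overlapped. J27a had 149, 131 and 94.97 CPM and J27b 107, 134 and 116 CPM. In the annotation GENCODE M21, 432 of the 588 exonic bases of Mt2 overlap the antisense gene Gm45774, and the sources used here do not say whether counting used strand, so reads of the pair cannot be told apart.

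Mt1 (chromosome 8, 94179082 to 94180327, plus strand), the neighbouring metallothionein gene with which Mt2 is known to be induced, was not a member. It had 216, 241 and 238 CPM in J17a, against 331 and 353 CPM in J17b (log2 fold change -0.56, SE 0.14, unadjusted p = 0.000591, edgeR adjusted p = 0.475). It averaged 293 CPM in J1 lf/lf, against 223 CPM in J2 lf/lf (log2 fold change 0.40, SE 0.12, adjusted p = 0.401). Per length, Mt1 stood at 1.71 to 2.68 times the TPM of Mt2 in each library, highest in Wild type replicate 3, whose Mt1 of 3313 TPM came with an Mt2 of 1237 TPM. Mt1 and Mt2 are similar in sequence, so their split of reads is uncertain.

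**Figure D2:**
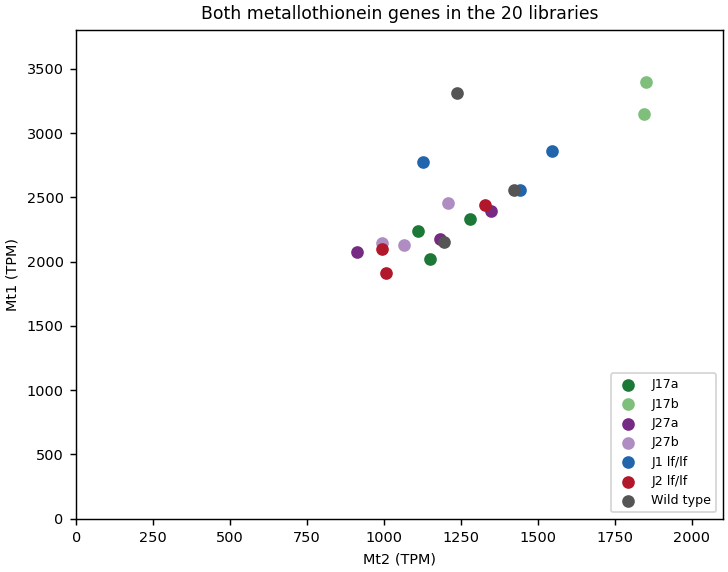
Mt1 against Mt2 in TPM in each of the 20 libraries, coloured by group, on linear axes from 0. The 2 J17b libraries, at 1844 and 1850 TPM of Mt2 and 3147 and 3396 TPM of Mt1, lie at the upper right, and Wild type replicate 3, at 1237 TPM of Mt2 and 3313 TPM of Mt1, lies above the rest at its Mt2 level.

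The comparison of J1 lf/lf with J2 lf/lf held the only edgeR calls. Of the 10 members, 2 were called by edgeR (Sgk1 and Errfi1, both lower in J1 lf/lf), against 0.0809% of all genes, and 3 by DESeq2 (with Ddit4). At an unadjusted p under 0.05 there were 6, of which 4 were lower and 2 (Plin4 and Mt2) higher in J1 lf/lf, against 6.38% of all genes. The members were chosen with earlier results of these data known, so an excess over these shares is no test of the set. The shares are from edgeR, and the share of all genes called by DESeq2 is not given here. The median log2 fold change of the members was -0.25, with 6 of 10 negative, while the median of all genes was within 0.01 of 0 in every comparison.

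J1 lf/lf and J2 lf/lf were each set against Wild type, which they share. In J1 lf/lf edgeR and DESeq2 called 0 of the 10, against 0.0125% of all genes called by edgeR. At an unadjusted p under 0.05 there were 3 (Sgk1, Errfi1 and Zbtb16), against 5.04% of all genes, and 8 of 10 were negative, with a median of -0.19. In J2 lf/lf 0 were called by edgeR or DESeq2, against 0.00623% of genes by edgeR, and 5 had an unadjusted p under 0.05, against 7.94% of genes. Of those 5, Sgk1, Errfi1 and Ddit4 were positive and Zbtb16 and Plin4 negative, and the median of the members was -0.02.

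The isoform lines gave few member results against Wild type. J17a had 0 calls by edgeR or DESeq2, against 0% of all genes by edgeR, and 2 members at an unadjusted p under 0.05 (Zbtb16 and Plin4), against 4.39% of genes. J17b had 0 calls by either tool, against 0.0249% of genes by edgeR, and 2 at an unadjusted p under 0.05 (Cdkn1a and Mt2), against 5.85%. J27a had 0 calls by either tool and 0 at an unadjusted p under 0.05, against 0% and 4.84% of genes by edgeR. J27b had 0 calls by either tool, against 0% of genes by edgeR, and Sgk1 alone at an unadjusted p under 0.05, against 6.94%. The members' median was -0.10 in J17a, -0.03 in J17b, -0.17 in J27a and -0.15 in J27b.

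The lines that carry the 7a and 7b codes were compared within each gene, the comparison closest to the isoform question of the series. J17a against J17b gave 0 calls by edgeR or DESeq2, against 0% of genes by edgeR, and 3 members at an unadjusted p under 0.05 (Pdk4 higher, Plin4 and Mt2 lower in J17a), against 5.9% of genes. J27a against J27b gave 0 calls by either tool and 0 members at an unadjusted p under 0.05, against 0% and 5.79% of genes by edgeR. There, 8 of 10 log2 fold changes were positive, from -0.31 (Plin4) to 0.11 (Zbtb16). The difference between these 2 differences was called for 0 members by either tool, against 0.00623% of genes by edgeR. It had an unadjusted p under 0.05 for Plin4 (-0.90, SE 0.41, adjusted p = 0.73) and Mt2 (-0.71, SE 0.23, adjusted p = 0.558), against 6.7% of genes.

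**Figure D3:**
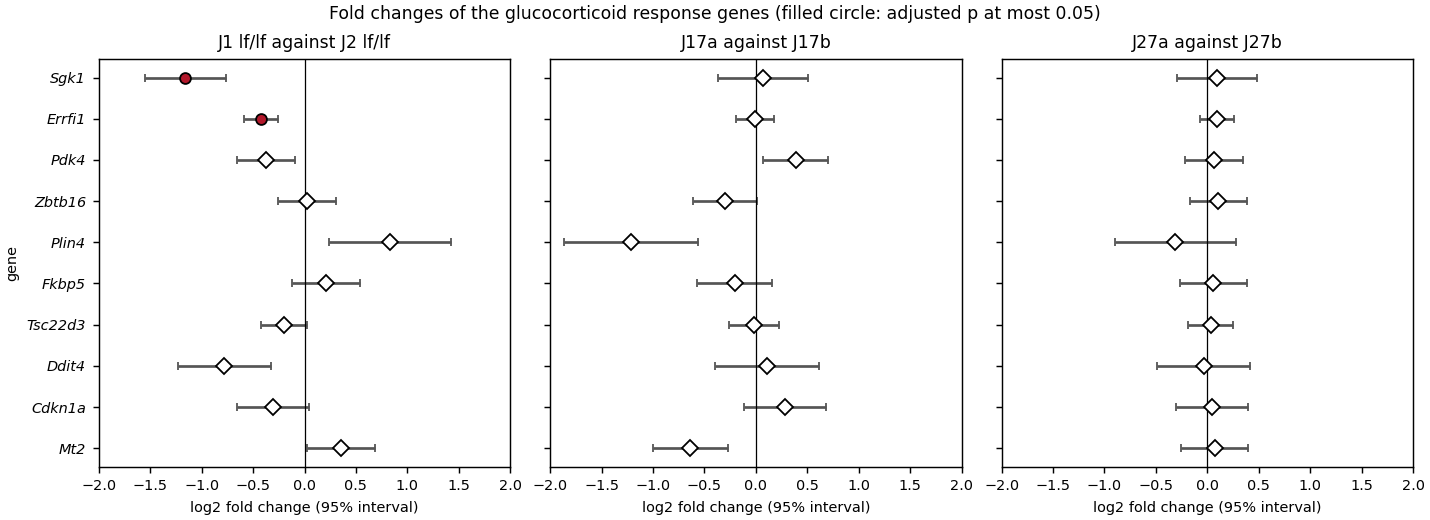
Log2 fold changes of the 10 genes with 95% intervals from the edgeR fit, for J1 lf/lf against J2 lf/lf, J17a against J17b and J27a against J27b; positive values are higher in the group named first. Filled circles mark an adjusted p of at most 0.05, which only Sgk1 (-1.16) and Errfi1 (-0.42) reached, both in J1 lf/lf against J2 lf/lf.

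Set against the line of the same gene, J17a gave 0 calls by edgeR or DESeq2, against 0.00623% of genes by edgeR, and 5 members at an unadjusted p under 0.05, against 6.54% of genes. Of these, Sgk1, Errfi1, Pdk4 and Tsc22d3 were positive and Plin4 negative against J1 lf/lf. J17b gave 0 calls by either tool, against 0.0311% of genes by edgeR, and 4 at an unadjusted p under 0.05 (Sgk1, Errfi1, Tsc22d3 and Mt2, all positive), against 4.22% of genes. J27a against J2 lf/lf gave 0 calls by edgeR, against 0.00623% of genes, 3 by DESeq2 (Sgk1, Zbtb16 and Ddit4) and 5 at an unadjusted p under 0.05, against 6.36% of genes. J27b against J2 lf/lf gave 0 by edgeR, again against 0.00623% of genes, 2 by DESeq2 (Sgk1 and Errfi1) and 6 at an unadjusted p under 0.05, against 4.75% of genes. These shares are all from edgeR, and the shares of all genes called by DESeq2 are not given here. The J17a and J17b comparisons share the J1 lf/lf libraries and those of J27a and J27b the J2 lf/lf libraries. Within title numbers of at most 10, J17a replicate 1 alone stands for the isoform lines. The title number term gives its values against J1 lf/lf, which were 0.75 for Sgk1, 0.29 for Errfi1, 0.34 for Tsc22d3, 0.25 for Pdk4 and -0.45 for Plin4, with no replicate.

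A test for any difference among the 7 groups called 0 of the 10 members by edgeR, against 0.0872% of genes, and 5 by DESeq2 (Sgk1, Errfi1, Zbtb16, Ddit4 and Mt2). That share is from edgeR, and the share of all genes called by DESeq2 is not given here. By edgeR, 7 members had an unadjusted p under 0.05, against 6.71% of genes, with the smallest adjusted p for Zbtb16 (0.134) and Sgk1 (0.155). Fkbp5, Tsc22d3 and Cdkn1a were the 3 without one.

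The receptors themselves varied little. Nr3c1 averaged 120.2 to 134 CPM and Nr3c2 42.2 to 45.4 CPM over the 7 groups, and no comparison gave either an unadjusted p under 0.05. Fkbp4, the co-chaperone that opposes Fkbp5 on the receptor complex, averaged 124 to 144 CPM and had its smallest unadjusted p in J27b against J2 lf/lf (log2 fold change 0.21, SE 0.09, adjusted p = 0.991). Of 12 genes for the receptors, their chaperones, cofactors and steroid handling, 11 were tested and none was called in any comparison. In J1 lf/lf against J2 lf/lf none of the 11 had an unadjusted p under 0.05 and their median was 0.0041.

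A further list of 14 known glucocorticoid targets was read beside the members. Like the members, this and the other lists were chosen with earlier results of these data known. In J1 lf/lf against J2 lf/lf, 9 of 14 were negative with a median of -0.15, and edgeR called 0. At an unadjusted p under 0.05 there were 5 lower and 2 higher, against 6.38% of all genes. The smallest p was that of Per1, a clock gene with receptor-bound enhancers, which averaged 77.9 CPM in J1 lf/lf, against 116 CPM in J2 lf/lf (log2 fold change -0.57, SE 0.12, edgeR adjusted p = 0.101). The arrestin family gene Arrdc2 was at -0.67, Nfkbia, the inhibitor of NF-kappaB, at -0.71, the phosphatase gene Dusp1 at -0.74 and Cebpd at -0.63, while Mt1 and Lcn2 were positive. In J17a against J17b, edgeR called 0 of the 14. At an unadjusted p under 0.05 there were 4 lower in J17a, against 5.9% of all genes: Mt1, Hif3a (-0.56), Angptl4 (-0.78) and Sult1a1 (-0.73). In no comparison was any of the 14 called by edgeR. Of the other lists, J1 lf/lf against J2 lf/lf gave an unadjusted p under 0.05 for 2 of 10 hypoxia and integrated stress targets and 0 of 10 p53 targets. Among 14 clock genes, which include Per1, it gave 3, and edgeR called 0 in these lists.

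Genes induced by neuronal activity also differed between these lines at an unadjusted p under 0.05. The summed level of 10 immediate early genes was 288 to 384 CPM over the J1 lf/lf libraries and 530 to 795 CPM over those of J2 lf/lf, against 309 to 539 CPM in Wild type. All 10 were negative in J1 lf/lf against J2 lf/lf, with a median of -0.83. At an unadjusted p under 0.05 there were 8 of them, against 6.38% of all genes, and none was called by edgeR (smallest adjusted p = 0.198). Dusp1 is in both this list and that of glucocorticoid targets, and whether these genes play a part in the Sgk1 and Errfi1 results was not tested. The immediate early sum was 338 to 408 CPM in J27b, with 9 of 10 genes negative against J2 lf/lf. Of these genes 5 had an unadjusted p under 0.05, against 4.75% of all genes. The sum was 509.95 to 685 CPM in J17a, with all 10 positive against J1 lf/lf. There 6 had an unadjusted p under 0.05, against 6.54% of all genes. In J17a against J17b, 9 of 10 were positive and 5 had an unadjusted p under 0.05, against 5.9% of all genes. In J27a against J2 lf/lf, 9 of 10 were negative and 0 had an unadjusted p under 0.05, against 6.36% of all genes. Red blood cell genes in J1 lf/lf against J2 lf/lf were positive in all 4 tested of 5, each at an unadjusted p under 0.05 and none called. They summed to 460 to 1901 CPM over J1 lf/lf and 368 to 487 CPM over J2 lf/lf libraries. Wild type had 498 to 751 CPM, and the part of these genes was not tested either. The 8 oligodendrocyte markers summed to 5903 to 7484 CPM over J1 lf/lf and 6391 to 7044 CPM over J2 lf/lf libraries, against 5141 to 6368 CPM in Wild type, so J1 lf/lf and J2 lf/lf overlapped. Every marker of neurons, astrocytes, oligodendrocytes, microglia and endothelium was above 0 in every library.

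**Figure D4:**
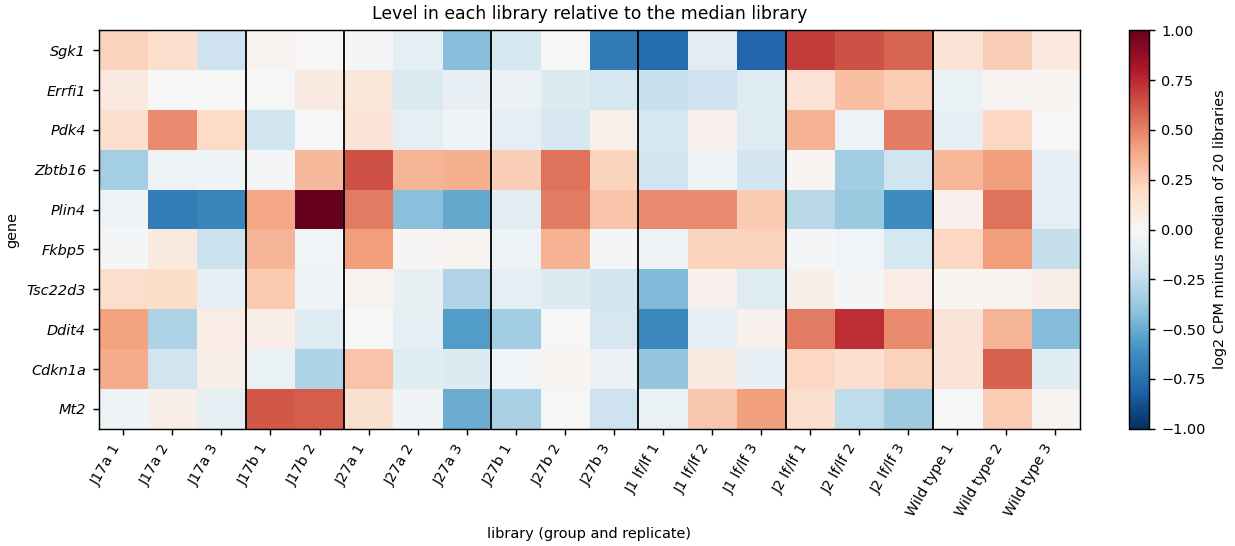
Log2 CPM of each gene in each library minus its median over the 20 libraries, in blue below and red above it, with groups parted by lines. The J2 lf/lf libraries are red for Sgk1 and Ddit4 and blue for Plin4, J1 lf/lf replicates 1 and 3 are blue for Sgk1, and both J17b libraries are red for Mt2.

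The members differed in how far replicates of a group spread. The SD of log2 CPM within groups was 0.36 for Plin4, 0.30 for Ddit4, 0.25 for Sgk1, 0.23 for Cdkn1a, 0.22 for Fkbp5, 0.21 for Mt2, 0.19 for Zbtb16, 0.17 for Pdk4, 0.15 for Tsc22d3 and 0.08 for Errfi1, against a median of 0.17 over all tested genes. Among the 1000 genes nearest in level, this put Plin4 at the 98.8th, Sgk1 at the 97.7th and Ddit4 at the 97.6th percentile, and Errfi1 at the 11.5th. Errfi1 was called at a smaller fold change than those of Ddit4 and Plin4, which were not called. The SD of the 7 group means was 0.44 for Plin4, 0.38 for Sgk1 and 0.28 for Mt2 and Ddit4, and 0.10 for Fkbp5, against a median of 0.10 over all genes.

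**Figure D5:**
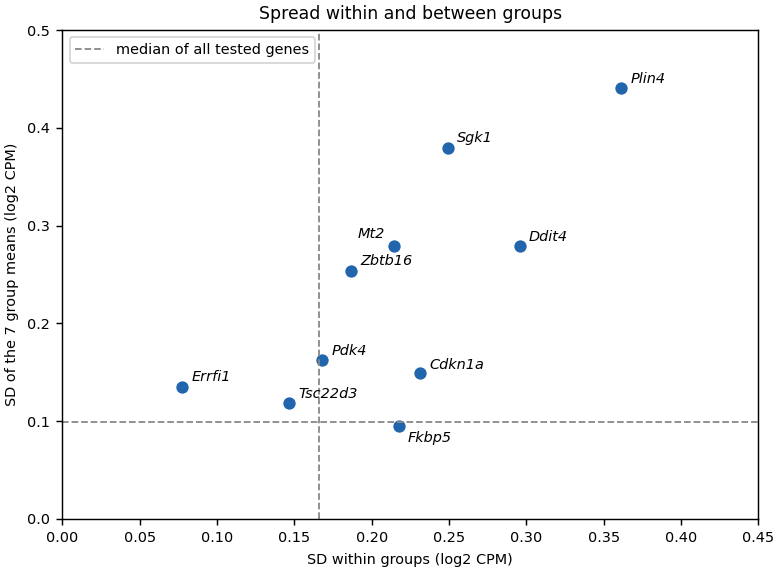
SD of log2 CPM within groups (horizontal) and SD of the 7 group means (vertical) for each of the 10 genes, with dashed lines at the medians of all tested genes. Errfi1 lies left of the vertical line at 0.08, Fkbp5 lies at the horizontal line at 0.10, and Plin4 is highest on both axes at 0.36 and 0.44.

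Replicates of a group that were high in 1 member tended to be high in others. Over 45 pairs of members, the correlation of deviations from the group means across the 20 libraries had a median Pearson r of 0.42 (range -0.13 to 0.83), with 42 positive and 13 above 0.5. These values describe the libraries, which share their normalization, and carry no test. No other set of genes was scored in this way, so they do not mark the members out. Values of this size were common: for Fkbp5, Tsc22d3 at r = 0.51 ranked 1761 and Sgk1 at r = 0.49 ranked 1912 over all tested genes. Ddit4 and Cdkn1a went together most (r = 0.83, Spearman rho = 0.78, and r = 0.75 without the 2 outermost libraries), followed by Sgk1 and Tsc22d3 (r = 0.68, rho = 0.66, and 0.64). Fkbp5 went with Cdkn1a (r = 0.67), Ddit4 (r = 0.65) and Mt2 (r = 0.63). Without the 2 outermost libraries these values were 0.50, 0.50 and 0.66. Pdk4 and Ddit4 did not go together (r = -0.13).

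Over all tested genes, those most like Fkbp5 by this measure were Tgm2 (r = 0.88), 2810004N23Rik (0.86), Rnf114 (0.85), Eln (0.85) and Wbp1l (0.84), and the nearest member, Cdkn1a, ranked 332. Those most like Plin4 were Dusp5 (r = 0.89), St6galnac4 (0.85), Zfp536 (0.85), Mmp24 (0.83) and Gprc5c (0.81), with Cdkn1a the nearest member at rank 463. For Sgk1, added after its values were seen, they were Tbata (r = 0.81), D630039A03Rik (0.81), Klf15 (0.79), Dstyk (0.79) and Meis2 (0.76), and Tsc22d3 ranked 21. Klf15, a Krueppel-like factor known as a direct receptor target, is the 1 gene of the list of further targets among these.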

How the data were processed

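Poly(A)-enriched RNA was sequenced in paired reads of 150 bases on a NovaSeq6000, per the labels' protocols. The authors deposited estimated counts and TPM per gene; cutadapt, RSEM and build mm10 are named in the submitters' processing notes, and the sources used here give no tool versions, annotation or strand use. RSEM divides shared reads by likelihood, and 4.11% of the counts were not whole. Counts were rounded and fitted in edgeR 4.0.16 (R 4.3.3; TMM factors 0.975 to 1.03, filterByExpr, robust quasi-likelihood test) with all 20 libraries and 7 groups, and p-values were adjusted by Benjamini-Hochberg over 16063 genes at a threshold of 0.05. Tests were two-sided and were checked on simulated counts. Fold changes are printed for members with an unadjusted p under 0.05. Further genes named are Nr3c1, Nr3c2, Fkbp4, Mt1, the leading genes of each list, and the 5 genes most like Fkbp5 and the member of largest spread. The members and lists were chosen with earlier results of these data known. Alternatives were DESeq2 1.42.0, its size factors, no filter, only the groups compared, a replicate block, limma 3.58.1 on log2(TPM + 1) and log2(TPM + 0.1), a title number term, Rn45s left out and each library left out. Leaving out 3 libraries with over 500 CPM of pituitary transcripts was chosen after seeing the data. No 2 replicates were as alike as sampling noise (chi-square per degree of freedom 5.43 to 62.1). Positions and overlaps came from GENCODE M21, and promoters from RefSeq GRCm38.p6.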

Additional observations from a re-analysis of the deposited data

Results flagged for a closer look

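Sgk1 and Errfi1 drew attention because every library of J1 lf/lf was below, and every library of J2 lf/lf above, the Wild type libraries. Taken singly, such separation was seen for 3.97% of all genes (below, J1 lf/lf) and 5.4% (above, J2 lf/lf). The differences from Wild type were not called by edgeR. In J1 lf/lf and J2 lf/lf the adjusted p was 0.624 and 0.618 for Sgk1, and 0.944 and 0.59 for Errfi1. For Sgk1 the difference between the 2 lines was -1.16 on the log2 scale (edgeR adjusted p = 0.0321), with 76.7 to 124 CPM over the J1 lf/lf libraries and 199.7 to 216 CPM over those of J2 lf/lf, against 143 to 157 CPM in Wild type. For Errfi1 it was -0.42 (edgeR adjusted p = 0.0329), with 34.6 to 36.9 CPM over the J1 lf/lf libraries and 44.7 to 49.9 CPM over those of J2 lf/lf, against 38.7 to 41.3 CPM in Wild type. Both calls were lost in most fits that left out 1 library of either line, as given above. The test that marks a single outlying library within a group was not run, since no group has enough libraries for it.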

How the results depend on the processing

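For 44 member results, 30 alternative settings gave 1320 values, of which 1287 kept direction and side of the threshold, 19 kept direction but missed it, 13 kept direction and passed it, and 1 turned round (Cdkn1a in J17b against Wild type, 0.015 with a title number term, which rests on J17a replicate 1 alone). Only Sgk1 and Errfi1 in J1 lf/lf against J2 lf/lf were called in the main fit, so only these 2 results could miss the threshold. Sgk1 missed it in 7 of the 30 settings and Errfi1 in 12. For all other results, keeping the side of the threshold meant staying uncalled. In J1 lf/lf against J2 lf/lf, Sgk1 and Errfi1 kept their direction in all 30 (-1.42 to -1.04 and -0.47 to -0.39). There the 2 called members became 1 (Sgk1) with the replicate block and in both limma fits, 0 without the 3 libraries rich in pituitary transcripts, and 0 to 2 with 1 library left out. A fit of these 2 groups alone called 2, but Errfi1 and Plin4. DESeq2 called 3 members in J27a against J2 lf/lf, 2 in J27b against J2 lf/lf and 5 for any difference among the groups, where edgeR called 0. Fits of only the groups compared called 1 in J17a against J17b (Mt2), 1 in J27a against J2 lf/lf (Sgk1) and 2 in J27b against J2 lf/lf (Errfi1 and Ddit4). With the replicate block Sgk1 was the 1 call in J27a and in J27b against J2 lf/lf and for any difference, and leaving out 1 library gave 0 to 1 for any difference (Zbtb16 without Wild type replicate 3, Sgk1 without J1 lf/lf replicate 2). The causes were not tested. The shares of all genes called in these alternative fits are not given here, so these counts of members have no background beside them. The replicate numbers did not pair the libraries: 2 of 57 same-numbered pairs had a correlation of deviations over 0.1 (-0.18 to 0.15), and 4 of 20 libraries correlated best with their own number, so the block was not preferred. Groups of 2 or 3 libraries limit all results, and members with a small difference between groups, such as Fkbp5, are bounded only by their intervals.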
